A study of Homo sapiens with 36 samples.

Results

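Described here are 6 untreated arrays of BEAS-2B, a line of bronchial epithelial cells from a human donor that was immortalized in culture, out of 36 Illumina bead arrays in all. They were chosen by line, treatment and time alone. The late group holds 1 array of 12 h and another of 18 h in culture medium, and the early group holds 1 array of 2 h, another of 4 h, and 2 of 6 h. All 6 were grown in DMEM without added copper. A further 2 untreated BEAS-2B arrays were taken at 0 h and serve as a second point of comparison. The wider study gave copper(II) sulphate to BEAS-2B at 800 µM and to HCT116, a human colorectal carcinoma line, at 1400 µM over the same times. The late and early untreated arrays of HCT116 are also 2 and 4, and the copper arrays of BEAS-2B at those times are 4 and 6. Cells were plated at 60 to 80% confluence, and each line stands for 1 cell population. The labels do not say if arrays of 1 time are separate cultures, and the p-values rest on differences among arrays that could be technical in origin. Time in culture and whatever else separated the 12 and 18 h arrays from the earlier ones cannot be told apart. The labels name no chip, slide or date.

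Cells that receive growth factors activate the kinase ERK, which switches on immediate early transcription factors and, with them, its own brakes, among them dual-specificity phosphatases and the Sprouty and SPRED proteins. The ETS factor genes ETV4 and ETV5 are also induced downstream of ERK and serve as readouts of it. Sterol and fatty acid synthesis is under the SREBP transcription factors, which are released from the endoplasmic reticulum when membrane cholesterol is low and are held there by INSIG1. Bronchial epithelial cells secrete cytokines such as interleukin 8 and interleukin 11 and carry tissue factor, the trigger of coagulation, on their surface. Levels below are log2 signals after background correction and quantile normalization, a difference is late minus early in log2 units, and ± beside a difference is its standard error. A gene is called when its Benjamini-Hochberg adjusted p, over all genes tested with limma, is below 0.05.

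The markers of the cell type gave a mixed picture. Of 6 general epithelial markers KRT7, KRT8, KRT18 and EPCAM were detected on all 6 arrays, and CDH1 and KRT19 on none. Of 7 airway basal markers 3 were measured, and only ITGA6 was detected. Their summed linear signal was 123.6 and 148 on the late arrays, against 149.8 to 174 on the early arrays. All 8 measured mesenchymal markers, among them VIM, FN1 and COL1A1, were detected on at least 1 array. The mesenchymal sum was 35796.5 and 36179 on the late arrays, against 32349.4 to 35481.4 on the early arrays. Of the leukocyte markers CD14, CD68, HLA-DRA and LYZ were detected and PTPRC was not, and the sum was 546.9 and 564.3 on the late arrays, against 595.8 to 688.2 on the early arrays. The 1 endothelial marker measured, VWF, which encodes von Willebrand factor, was detected on all 6 arrays at 5.10 and 4.90 on the late arrays, against 5.76, 5.82, 5.61 and 5.71 on the early arrays. It fell by 0.72 (adjusted p = 0.014, 0.075 without the 12 h array and 0.16 without the 18 h array) and was the 1 marker called lower, beside the mesenchymal COL1A1, the 1 called higher. The part of these shifts in the results was not tested. The share of detected probes ran from 41.35% to 43.23% over the 8 untreated BEAS-2B arrays.

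CXCL8, IL11, CCND1 and 9 of 11 ERK feedback genes were called lower in late culture, and LRRC17, 6 of 19 cholesterol synthesis genes and 4 of 11 fatty acid synthesis genes were called higher. Without either late array 0 members of both synthesis lists were called. Of 14678 genes tested, 534 (3.64%) were called, 281 higher (1.91%) and 253 lower (1.72%). An unadjusted p below 0.05 was reached by 2690 genes (18.3%), 10.3% higher and 8.07% lower. Among called genes 15 rose and 41 fell by more than 2-fold, and the median difference was 0.63 for the rises and -0.73 for the falls, against 0.01 over all genes tested. In every called gene both late arrays lay beyond all 4 early arrays, which was so for 15.6% of all genes on the higher side and 12.5% on the lower side. On the first principal component of the 8 untreated arrays, with 28.46% of the variance, the 12 and 18 h arrays lay at -17.78 and -20.02, the 4 early arrays between 10.76 and 14.42, and the 0 h arrays at -6.09 and -5.81. The calls rest on both late arrays: 24 genes were called without the 12 h array and 24 without the 18 h array. Without the 4 h array, the first or the second 6 h array, 235, 273 and 352 were called, and 346 without either 0 h array.

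**Figure D1:**
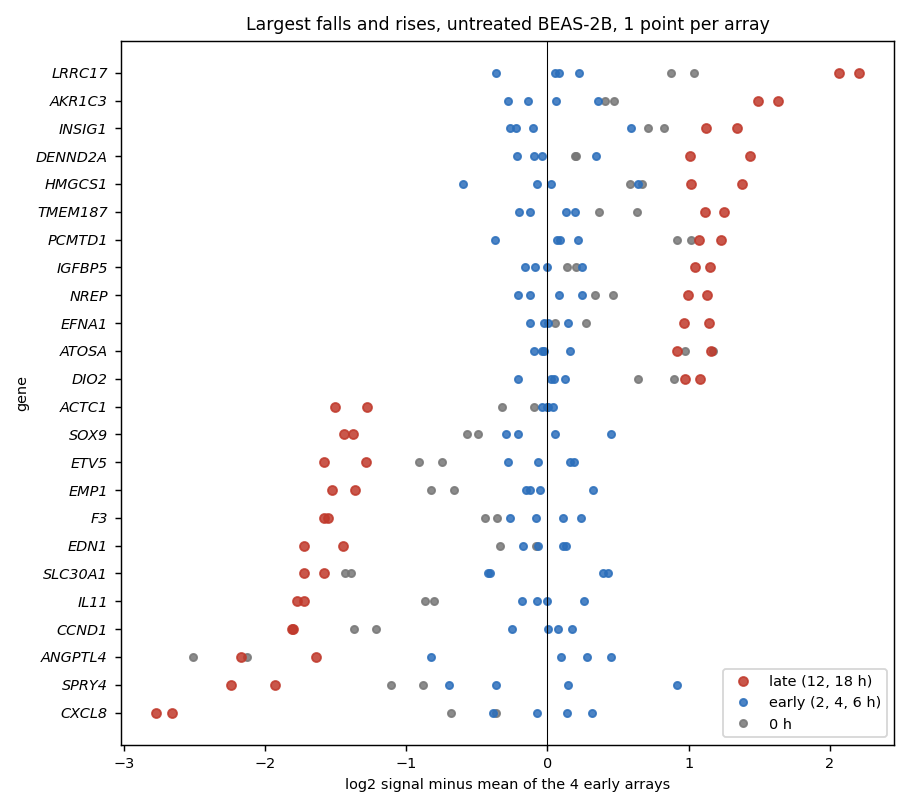
Log2 signal of each untreated BEAS-2B array minus the mean of the 4 early arrays, for the 12 largest rises and 12 largest falls, with 1 point per array (late arrays red, early arrays blue, 0 h arrays grey). Genes with placeholder symbols were left out of the ranking. In all 24 genes both red points lie beyond all blue points, which was so for every called gene. The grey points lie near the late arrays for ATOSA, PCMTD1, SLC30A1 and ANGPTL4 and near the early arrays for ACTC1, EFNA1 and EDN1.

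CXCL8 (Entrez Gene 3576, chromosome 4), which encodes the neutrophil attractant interleukin 8, had the largest fall of the named genes. It stood at 6.55 at 12 h and 6.67 at 18 h, against 9.47 at 2 h, 9.65 at 4 h and 9.25 and 8.95 at 6 h. Both late arrays lay far below the early ones, for a difference of -2.72 ± 0.18 (adjusted p = 0.00028) or 6.57-fold. A second CXCL8 probe gave -1.07. IL11 (3589, chromosome 19), a cytokine of the interleukin 6 family, stood at 7.58 and 7.53 on the late arrays, against 9.56, 9.30, 9.24 and 9.13 on the early arrays (-1.75 ± 0.13, adjusted p = 0.00028). F3 (2152, chromosome 1), which encodes tissue factor, stood at 8.87 and 8.85, against 10.67, 10.54, 10.35 and 10.17 (-1.57 ± 0.14, adjusted p = 0.0011). These 3 genes kept their calls when any single array was left out. Their upstream sequences are shown because each holds TGANTCA, the core letters that AP-1 factors such as FOSL1 and JUN recognise. Each run is the 250 bases before the annotated start site, 5′ to 3′ on the gene's strand, from RefSeq (GRCh38.p14), with TGANTCA in capitals.
CXCL8 (chr4:73740319-73740568, plus strand): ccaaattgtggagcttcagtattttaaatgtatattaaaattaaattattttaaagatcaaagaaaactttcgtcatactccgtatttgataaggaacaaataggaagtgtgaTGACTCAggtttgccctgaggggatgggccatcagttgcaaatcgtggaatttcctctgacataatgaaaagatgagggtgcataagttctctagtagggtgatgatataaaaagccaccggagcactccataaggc
IL11 (chr19:55370464-55370713, minus strand): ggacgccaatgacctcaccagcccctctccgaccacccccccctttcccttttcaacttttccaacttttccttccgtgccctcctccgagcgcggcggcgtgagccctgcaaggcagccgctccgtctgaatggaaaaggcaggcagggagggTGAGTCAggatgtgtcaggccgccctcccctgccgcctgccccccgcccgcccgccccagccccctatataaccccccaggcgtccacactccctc
F3 (chr1:94541760-94542009, minus strand): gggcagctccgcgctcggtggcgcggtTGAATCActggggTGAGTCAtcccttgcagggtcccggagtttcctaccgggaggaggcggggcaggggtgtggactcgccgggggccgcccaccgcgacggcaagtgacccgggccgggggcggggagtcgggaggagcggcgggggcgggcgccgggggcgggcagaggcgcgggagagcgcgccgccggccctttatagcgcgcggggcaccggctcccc
The motif, searched as TGANTCA on both strands (it reads the same on each, so no match is counted again), begins 137 bases before the start in CXCL8, 96 in IL11, and 223 and 210 in F3. It occurs in 6.57% of all 35116 windows of this length in the table. Of the 12 largest falls 9 had a window, 4 of them with the motif, the other being EMP1. Of the 12 largest rises 11 had a window, 1 of them with the motif. This is a description of letters in genes picked for their change in these same data. The share over all windows counts every window listed, whereas each named gene gave at most 1 window. Enrichment was not tested, and binding was not measured.

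Of 11 measured ERK feedback genes, which are negative regulators and readouts of ERK signalling, 9 were called lower and 0 higher, against 1.72% of all genes called lower, and all 11 differences were negative, with a median of -1.10. SPRY4 (81848, chromosome 5), a Sprouty inhibitor of receptor tyrosine kinase signalling, stood at 5.13 and 5.45 on the late arrays, against 8.29 at 2 h, 7.52 at 4 h and 7.01 and 6.68 at 6 h (-2.09 ± 0.35, adjusted p = 0.015). Its early values spread over more than 1 log2 unit, and its 4 probes ran from -2.09 to 0.02. ETV5 (2119, chromosome 3), an ETS transcription factor gene that follows ERK activity, stood at 7.62 and 7.32, against 8.62, 9.09, 9.07 and 8.84 (-1.43 ± 0.16, adjusted p = 0.0029). SPRY2 fell by 1.21 (adjusted p = 0.0037), the phosphatase gene DUSP4 by 1.31, the ephrin receptor gene EPHA2 by 1.36, PHLDA1 by 0.86 and DUSP6 by 1.10. DUSP6, the phosphatase specific for ERK, was detected on 1 of the 2 late arrays, and its probes ran from -1.10 to -0.08. The members ETV4 and SPRED2 complete the 9 at -1.09 and -0.73, and SPRED1 missed the threshold at -0.79 (adjusted p = 0.0501), as did SPRY1 at -0.26 (adjusted p = 0.54). The group count rests on both late arrays, since 2 members were called without the 12 h array and 0 without the 18 h array.

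Immediate early genes, the transcription factors and phosphatases that serum induces first, had 6 of 21 measured members called lower and 0 higher, against 1.72% of all genes called lower, and the median was -0.33. FOSL1 (8061, chromosome 11), an AP-1 subunit, stood at 7.01 on both late arrays, against 8.23, 8.04, 8.28 and 8.18 on the early arrays (-1.17 ± 0.11, adjusted p = 0.0019). IER3, an early response gene linked to cell survival, stood at 10.58 and 10.42, against 12.19, 12.00, 11.63 and 11.68 (-1.37). DUSP1, a phosphatase for p38 and JNK, fell by 0.89, MYC by 0.65 and JUN by 0.62, and DUSP6 has been described. The groups did not overlap in any of the 6, which was so for every called gene and for 12.5% of all genes on the lower side. Without the 12 h array 1 member was called and without the 18 h array 2, with FOSL1 called in both cases. The 2 members with the largest change after 0 h, FOS and EGR1, were named after their values were seen. FOS was detected on both 0 h arrays, at 7.73 and 7.93, and on 0 of the 6 late and early arrays. EGR1 stood at 9.24 and 9.30 on the late arrays, against 9.46, 9.18, 8.93 and 8.74 on the early arrays (0.19, adjusted p = 0.64) and 12.27 and 12.20 at 0 h.

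CCND1 (595, chromosome 11), cyclin D1, the growth factor-dependent cyclin of early G1, stood at 9.98 and 9.97 on the late arrays, against 11.53, 11.95, 11.85 and 11.78 on the early arrays. The late arrays lay below all others, for a difference of -1.80 ± 0.13 (adjusted p = 0.00028), called with any single array left out. Against the 0 h arrays the late difference of CCND1 was -0.51 (limma adjusted p = 0.28). With 0 h joined to early its call was lost (adjusted p = 0.14). Few other cell cycle genes were called. E2F2, an E2F factor of S phase entry, rose by 0.87 (adjusted p = 0.0045), a call lost without the 12 h or 18 h array (adjusted p = 0.070 and 0.054). CCND1 and E2F2 were the only calls among 16 measured G1/S cyclins, E2F factors and CDK inhibitors (12.5%), against 3.64% of all genes. At an unadjusted p below 0.05, 7 of the 16 were higher and 2 lower, against 10.3% and 8.07% of all genes. Of 25 mitosis genes 1 was called, against 3.64% of all genes. It was KIF20A, a kinesin of cytokinesis, at 0.50 (limma adjusted p = 0.038), a call lost when any single array was left out. Of 23 DNA replication genes 0 were called by limma, although 7 were higher and 1 lower at an unadjusted p below 0.05, against 10.3% and 8.07% of all genes, and the median was 0.19. MCM2, a subunit of the replicative helicase, stood at 0.54 (adjusted p = 0.054) and RRM2, a subunit of ribonucleotide reductase, at -0.46 (adjusted p = 0.061).

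The other large falls were genes of mixed function. EDN1 (1906, chromosome 6), which encodes the vasoconstrictor endothelin 1, stood at 6.21 and 6.49 on the late arrays, against 8.07, 8.04, 7.87 and 7.76 on the early arrays (-1.58 ± 0.14, adjusted p = 0.00087). ANGPTL4, an inhibitor of lipoprotein lipase, stood at 5.64 and 5.11, against 6.46 at 2 h, 7.38 at 4 h and 7.57 and 7.73 at 6 h (-1.91 ± 0.31, adjusted p = 0.013). Its early values climbed after 2 h, and its 3 probes ran from -1.91 to -0.47. EMP1, an epithelial membrane protein gene, stood at 10.70 and 10.54, against 11.91, 12.38, 11.94 and 12.01 (-1.44). SOX9, a transcription factor gene of airway progenitors, stood at 7.16 and 7.10, against 8.99, 8.59, 8.25 and 8.33 (-1.41). ACTC1, cardiac actin, stood at 5.22 and 5.45, against 6.72, 6.73, 6.69 and 6.77 (-1.39), though a second probe gave -0.26. EDN1, EMP1 and ACTC1 kept their calls without any single array, whereas those of ANGPTL4 and SOX9 were lost without the 12 h array (adjusted p = 0.070 and 0.065) or the 18 h array (0.15 and 0.083).

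Among 22 NF-kB and cytokine genes 4 were called lower and 0 higher, with a median of -0.26. The share of all genes called lower, 1.72%, also stands beside the TGF-beta and YAP counts that follow. Beside CXCL8 and IL11 these were CXCL1, a neutrophil chemokine detected on 1 of the 2 late arrays, at -1.12 (adjusted p = 0.014) and the cytokine gene IL32 at -0.59 (adjusted p = 0.041). Without either late array only CXCL8 and IL11 were called. Among 15 TGF-beta targets 4 were called lower and 0 higher. ID1, an inhibitor of differentiation factors, stood at 8.62 and 8.06 on the late arrays, against 9.85, 9.65, 9.60 and 9.39 on the early arrays (-1.28). SNAI2, a repressor of epithelial genes, fell by 0.92 and the inhibitory SMAD gene SMAD7 by 0.72. The fourth, CCN2, a matricellular protein gene shared with the YAP list, fell by 0.63. Of 15 YAP targets 3 were called lower, CCN2, F3 and NT5E, which encodes a surface enzyme that makes adenosine (-0.85). Without the 12 h array 1 TGF-beta target and 2 YAP targets were called, and without the 18 h array 0 and 1. Of 17 collagen and matrix genes 2 were called lower and 1 higher, against 1.72% and 1.91% of all genes. LAMB3, a laminin chain of the epithelial basement membrane, fell by 1.22, and THBS1, the matricellular protein thrombospondin 1, by 0.80. COL1A1, the main chain of collagen I, rose by 0.55, and no call among these 3 was kept without the 18 h array. Those of THBS1 and COL1A1 were also lost without the 12 h or the 4 h array, that of THBS1 without the second 6 h array and that of COL1A1 without either 0 h array. Of 16 epithelial differentiation genes and 13 matrix protease and plasminogen genes 1 each was called, both lower. Of 11 glucocorticoid targets 2 were called lower and 1 higher. From these lists the tight junction gene CLDN1 fell by 1.07 (adjusted p = 0.0033) and the receptor gene of urokinase, PLAUR, by 0.88 (adjusted p = 0.0037). The kinase gene SGK1, a glucocorticoid target, fell by 1.07 (adjusted p = 0.0065). These 3 calls were lost without the 12 h array, at adjusted p of 0.056, 0.065 and 0.065, and without the 18 h array, at 0.054, 0.054 and 0.099.

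**Figure D2:**
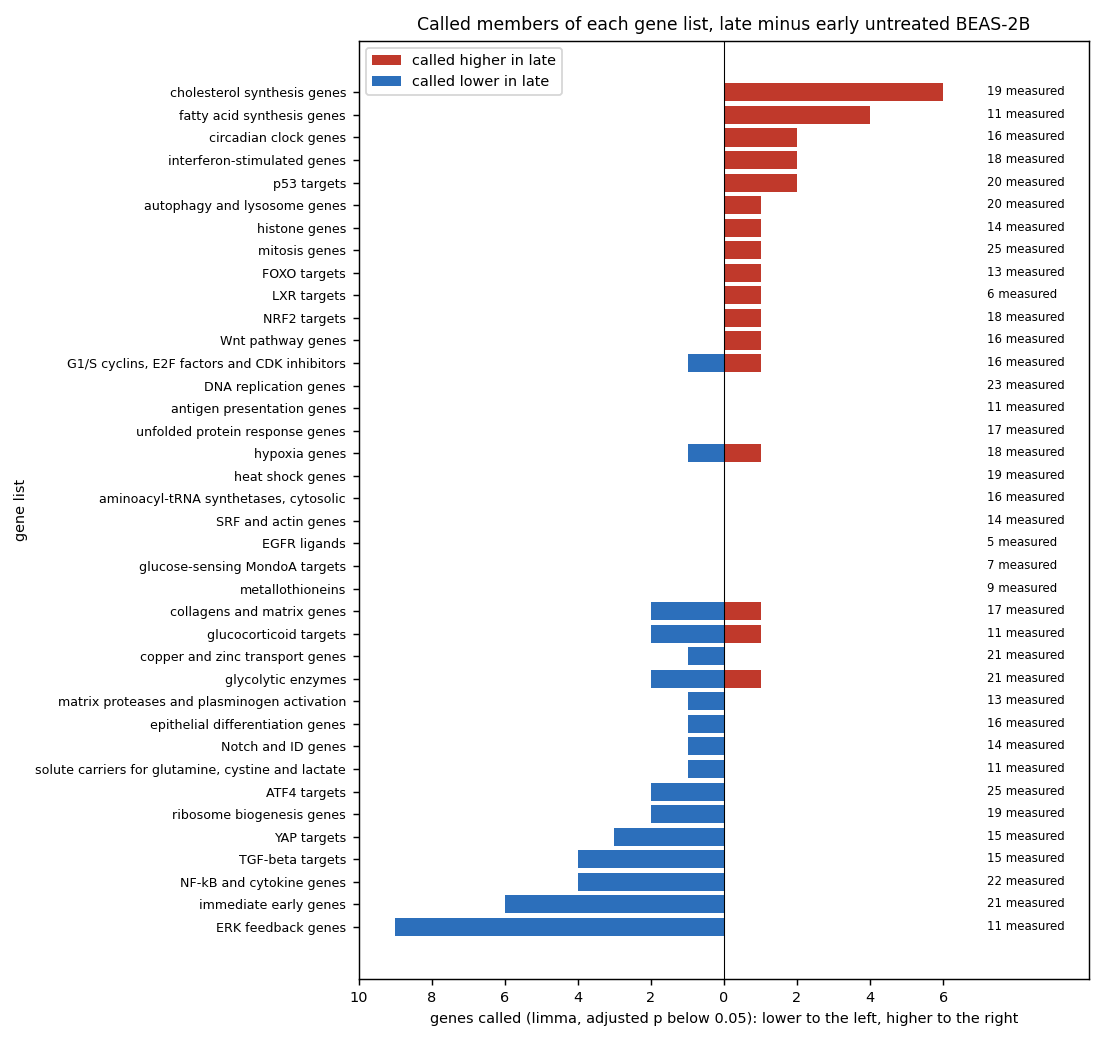
Number of members of each gene list called higher (red, to the right) or lower (blue, to the left) in late than early untreated BEAS-2B arrays (limma, adjusted p below 0.05), with the number of members measured. The ERK feedback list has 9 of 11 called lower, and the cholesterol synthesis list has 6 of 19 called higher.

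Of 19 measured cholesterol synthesis genes 6 were called higher and 0 lower, against 1.91% of all genes called higher. The list is not of enzymes alone, since it also holds INSIG1, SREBF2 and STARD4, and INSIG1 is among the 6. All 19 differences were positive, with a median of 0.57, and in 15 of them both late arrays lay above all early arrays, against 15.6% of all genes. CYP51A1, lanosterol demethylase, had the smallest difference at 0.10 (adjusted p = 0.85). INSIG1 (3638, chromosome 7) stood at 11.38 and 11.60 on the late arrays, against 10.84 at 2 h, 10.15 at 4 h and 10.03 and 9.99 at 6 h (1.24 ± 0.22, adjusted p = 0.018). HMGCS1 (3157, chromosome 5), the synthase that feeds HMG-CoA reductase, stood at 10.51 and 10.88, against 10.14, 9.52, 9.42 and 8.90 (1.20 ± 0.27, adjusted p = 0.040). In both genes the 2 h array was the highest of the early ones. TM7SF2 and DHCR7, reductases late in the pathway, rose by 0.87 and 0.85, and lanosterol synthase, LSS, by 0.71. MSMO1, a sterol methyl oxidase, rose by 0.73 and was named after its value was seen. The calls among these genes are less firm than those of the largest falls. Without the 12 h array 0 of 19 were called and without the 18 h array 0, and without either 0 h array, the 4 h array or the first 6 h array 3 were called. HMGCS1 was among the calls lost without these arrays.

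Of 11 measured fatty acid synthesis genes 4 were called higher and 0 lower, against 1.91% of all genes called higher, with all 11 differences positive and a median of 0.45. SCD (6319, chromosome 10), the desaturase that makes oleate, stood at 12.71 and 12.60 on the late arrays, against 12.30, 12.07, 12.02 and 11.84 on the early arrays (0.60 ± 0.14, adjusted p = 0.045). ACSS2, which makes acetyl-CoA from acetate, and the elongase gene ELOVL6 each rose by 0.63. ACACA, acetyl-CoA carboxylase, rose by 0.45. SREBF1, the gene of an SREBP factor, stood at 0.17 (adjusted p = 0.615). Without either late array 0 of the 4 were called, and 2 were called without either 0 h array, the 4 h array or either 6 h array.

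LRRC17 (10234, chromosome 7), a secreted leucine-rich repeat protein gene, had the largest rise of the named genes. It stood at 7.64 and 7.78 on the late arrays, against 5.20 at 2 h, 5.62 at 4 h and 5.79 and 5.65 at 6 h. The difference was 2.14 ± 0.16 (adjusted p = 0.00028) or 4.40-fold, a second probe gave 1.21, and the call held without any single array. AKR1C3 (8644, chromosome 10), an aldo-keto reductase that acts on steroids and prostaglandins, stood at 7.55 and 7.69, against 6.12, 5.91, 6.42 and 5.77 (1.56 ± 0.17, adjusted p = 0.0028). Probes of AKR1C genes can share signal with close paralogs. AKR1C3 was the 1 NRF2 target called among 18, against 3.64% of all genes, and its call was lost without the 18 h array. IGFBP5, a binding protein for insulin-like growth factors, rose by 1.10 with a second probe at 0.08, and NREP by 1.06. EFNA1, an ephrin ligand gene whose receptor EPHA2 fell, rose by 1.06, with a second probe at 0.36. DIO2, the deiodinase that activates thyroid hormone, stood at 8.21 and 8.11, against 7.26, 6.93, 7.18 and 7.16 (1.03 ± 0.13). The other large rises were DENND2A at 1.22, TMEM187 at 1.19, PCMTD1 at 1.15 and ATOSA at 1.04. Of the 24 largest changes 12 were called without the 12 h array and 9 without the 18 h array, and 8 in both cases, of which LRRC17 was the 1 rise.

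**Figure D3:**
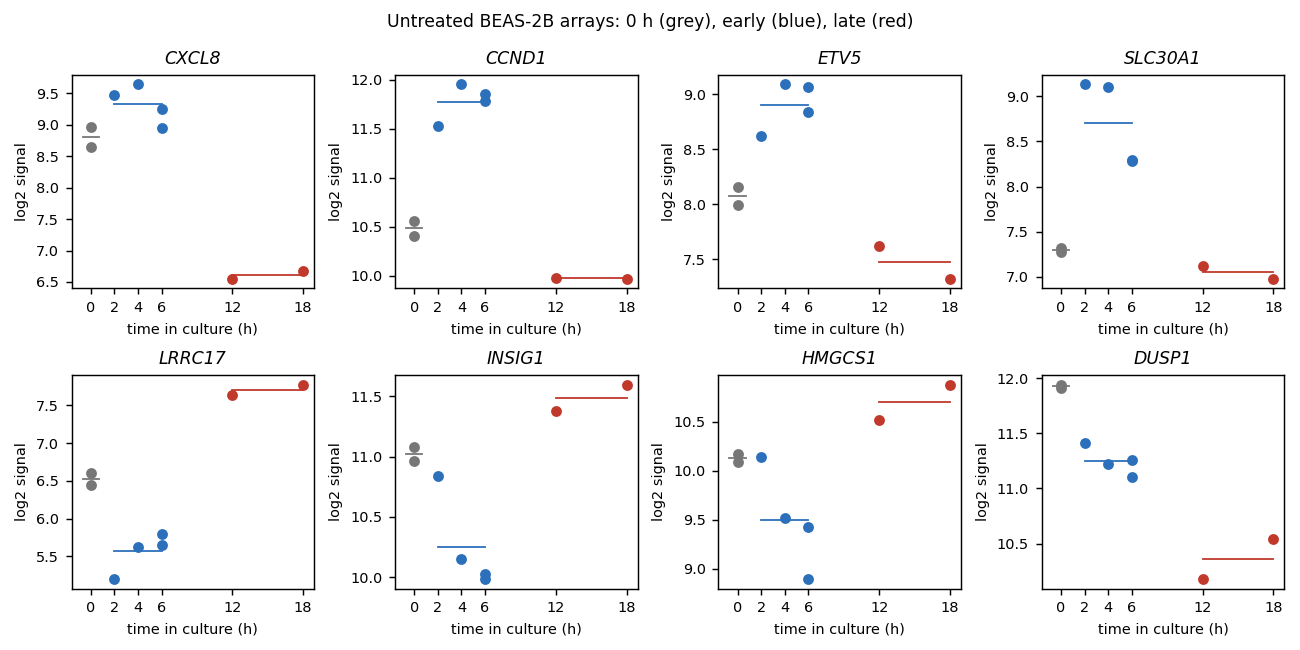
Log2 signal of 8 genes on each untreated BEAS-2B array against time in culture (0 h grey, early blue, late red), with a line at each group's mean. CXCL8, CCND1, ETV5, SLC30A1 and DUSP1 lie lower at 12 and 18 h than at 2 to 6 h, and LRRC17, INSIG1 and HMGCS1 lie higher.

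The metal genes are of interest because the same study gave copper to this line. SLC30A1 (7779, chromosome 1), the plasma membrane zinc exporter, stood at 7.12 and 6.98 on the late arrays, against 9.13 at 2 h, 9.10 at 4 h and 8.30 and 8.28 at 6 h. The 0 h arrays read 7.31 and 7.27. The late and 0 h arrays lay together below the early ones. Its difference was -1.65 ± 0.25 (adjusted p = 0.0097), with adjusted p of 0.080 and 0.11 without the 12 h or 18 h array. It was the 1 call among 21 copper and zinc transport genes, against 3.64% of all genes called. Of 9 metallothioneins, small proteins that bind zinc and copper, 0 were called by limma, and 2 had an unadjusted p below 0.05, both lower, against 8.07% of all genes. Without the 2 h array 1 member was called, MT1M, which was lower (adjusted p = 0.023). MT1X stood at 9.85 and 9.19 on the late arrays, against 9.77, 10.19, 10.78 and 10.44 on the early arrays (-0.78 ± 0.26, adjusted p = 0.14) and 8.59 and 8.69 at 0 h. Its early arrays stood above 0 h (adjusted p = 0.047). MT1M stood at -0.97 (adjusted p = 0.13) and MT1E at -0.36 (adjusted p = 0.63). The MT1 genes are close paralogs whose probes can share signal.

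The remaining lists had 0 to 3 calls each, to be read beside 1.91% of all genes called higher and 1.72% called lower. Among 16 circadian clock genes the output genes DBP and CIART were called higher. DBP was detected on both late arrays and 0 of 4 early arrays, so it was at least 1.65-fold higher (adjusted p = 0.015), the undetected side being set to the lowest detected signal of each array. CIART, a clock repressor gene, rose by 0.82 and was detected on 1 of 4 early arrays. Among 20 p53 targets the repair gene XPC rose by 0.74 and TP53INP1 by 0.62, and among 18 interferon-stimulated genes IRF9 rose by 0.77 and IFIT1 by 0.81. Of 19 ribosome biogenesis genes RRS1 fell by 0.91 and NOP16 by 0.69. Of the 19 differences 18 were negative, with a median of -0.22 against 0.01 over all genes tested. Of 25 targets of ATF4, the factor of the integrated stress response, the hormone gene STC2 fell by 0.95 and the pseudokinase gene TRIB3 by 0.78. Among 21 glycolytic genes the glucose transporter gene SLC2A3 fell by 0.77 and PFKFB3, a regulator of phosphofructokinase, by 0.66, while aldolase C, ALDOC, rose by 0.61. Each of these 13 calls was lost without the 12 h array and also without the 18 h array, and those of CIART, TP53INP1, IFIT1, PFKFB3, ALDOC and TRIB3 were also lost without at least 1 of the other arrays. Limma called 0 of the heat shock, unfolded protein response, tRNA synthetase, antigen presentation and SRF genes. At an unadjusted p below 0.05 stood 2 of 19 heat shock genes, 0 of 17 unfolded protein response genes, 4 of 16 tRNA synthetase genes, 5 of 11 antigen presentation genes and 6 of 14 SRF and actin genes, against 18.3% of all genes. Without the 2 h array 1 SRF and actin gene was called lower.

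Setting both groups beside the 0 h arrays asks whether the late arrays moved away from the start or back toward it. Few genes were called in either comparison with 0 h: 29 (0.198%) for late minus 0 h, 0.0341% of genes higher and 0.164% lower, and 25 (0.17%) for early minus 0 h, 0.0954% higher and 0.0749% lower. These comparisons share arrays with late minus early, so their values are given side by side. The ERK feedback median was -0.59 for late minus 0 h and 0.58 for early minus 0 h. For cholesterol synthesis genes these medians were 0.32 and -0.22, and for fatty acid synthesis genes 0.14 and -0.28. The 0 h mean lay nearer the late than the early mean for 45.9% of the 281 rises and 45.8% of the 253 falls, against 47.8% of all genes. Among the 281 rises 4 were called above 0 h, among them LRRC17 at 1.18. Among the 253 falls 16 were called below 0 h, including CXCL8 at -2.19, DUSP1 at -1.57, SPRY2 at -1.42, EDN1 at -1.38 and F3 at -1.17. CCND1 and IL11 were called above 0 h on the early arrays, at 1.29 and 0.84, and ANGPTL4 at 2.32.

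The same comparison in untreated HCT116 had 1630 calls (11.1%), and the difference between the lines, BEAS-2B minus HCT116, was itself tested. It was called for 878 genes (5.98%), 446 with a higher (3.04%) and 432 with a lower value (2.94%) in BEAS-2B. Of the 281 rises in BEAS-2B 47 were called higher and 12 lower in HCT116, against 5.65% and 5.45% of all genes, and of the 253 falls 66 were called lower and 15 higher. The change of ETV5 had opposite signs, -1.43 ± 0.16 in BEAS-2B and 1.35 ± 0.12 in HCT116 (adjusted p of the difference = 1.8e-06). That of ANGPTL4 did too, at -1.91 ± 0.31 and 1.87 ± 0.16 (difference adjusted p = 5.1e-05). Of the 11 ERK feedback genes 8 had a called difference, all lower in BEAS-2B, against 2.94% of all genes, and their median was -1.10 in BEAS-2B and 0.09 in HCT116. CXCL8 was at -2.72 in BEAS-2B and 0.54 in HCT116 (difference adjusted p = 7.6e-06), where 3 of 8 untreated arrays detected it. LRRC17 and AKR1C3 rose in BEAS-2B and stood at -0.08 and -0.86 in HCT116, with LRRC17 detected on 0 of its 8 untreated arrays. SLC30A1, F3 and TMEM187 changed in both lines in the same direction. SLC30A1 was at -1.65 in BEAS-2B and -1.56 in HCT116, and TMEM187 at 1.19 and 1.21, with adjusted p of the difference of 0.92 and 0.96.

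**Figure D4:**
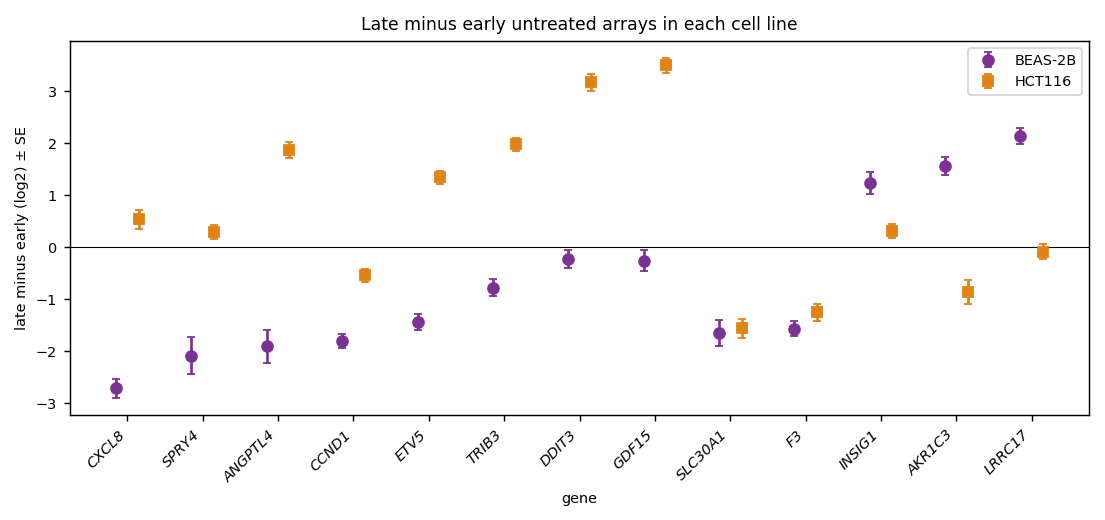
Late minus early difference of 13 genes in untreated BEAS-2B (purple circles) and untreated HCT116 (orange squares), in log2 units with bars of 1 standard error. SLC30A1 and F3 are negative in both lines, while ETV5, ANGPTL4 and TRIB3 are negative in BEAS-2B and positive in HCT116.

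Stress genes were among those with the smallest p-values of the line difference. GDF15, a stress-induced hormone, stood at -0.25 ± 0.20 in BEAS-2B and 3.50 ± 0.15 in HCT116, and DDIT3, the stress factor CHOP, at -0.23 ± 0.17 and 3.17 ± 0.16 (adjusted p of both differences = 1.7e-06). TRIB3 stood at -0.78 and 1.99, and the uridine phosphorylase gene UPP1 at -0.22 and 2.18. Of the 25 ATF4 targets 17 had a called difference that was lower in BEAS-2B, against 2.94% of all genes, and their median was -0.11 in BEAS-2B and 0.93 in HCT116. DDIT4, an inhibitor of mTORC1 signalling, had a BEAS-2B difference of 1.33 (adjusted p = 0.076), against 4.02 in HCT116. In the other direction, THBS1 stood at -0.80 in BEAS-2B and -3.52 in HCT116, the carboxypeptidase gene CPA4 at 0.35 and -2.23, and CDC25A, a phosphatase of the G1/S transition, at 0.05 and -1.53. ZSCAN31, a zinc finger gene, stood at 0.50 and -0.98. GDF15 was detected on 1 of 2 late and 3 of 4 early arrays of BEAS-2B.

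Copper arrays of BEAS-2B share no sample with the untreated ones, and late minus early gave 5927 calls (40.4%) there over 10 arrays, 14.7% of all genes being called higher and 25.7% lower. Of the 281 untreated rises 48 were called higher and 105 lower with copper, and of the 253 untreated falls 38 were called higher and 113 lower. Their values are given side by side with those of untreated cells. CXCL8 stood at 1.31 (adjusted p = 0.060) with copper and -2.72 without, with means on the copper arrays of 14.08 late and 12.77 early. INSIG1 stood at 1.19 with copper and 1.24 without, LRRC17 at -0.71 and 2.14, SPRY4 at -2.05 and -2.09, and SLC30A1 at -0.53 (adjusted p = 0.13) and -1.65. The difference between treated and untreated cells in these changes was not tested.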

How the data were processed

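RNA was labelled as biotinylated cRNA and hybridized to Illumina bead arrays, per the labels' protocols, and BeadStudio is named in the submitters' processing notes, with no version. The authors deposited log2 signals called non-normalized in the file headers, with a detection p-value beside each, and a second table of log2 values that the file headers describe as normalized. That the scale is log2 was read from the values, from 5.89 to 14.49. Here signals of all 36 arrays were made linear and processed with neqc of limma 3.58.1 (R 4.3.3, offset 16). Probes with a detection p below 0.01 on 2 or more arrays were kept, and a gene was its probe with the highest mean, which gave 14678 genes. Genes were named from the array annotation, and 29511 of 43960 probes had 1 gene symbol.

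The main model held the 8 untreated BEAS-2B arrays as late, early and 0 h, with 5 residual degrees of freedom, and was tested two-sided with moderated statistics and Benjamini-Hochberg adjustment. Separate models held the 16 untreated arrays of both lines, for the line difference, and the 10 copper arrays of BEAS-2B. Another held the 8 untreated arrays of HCT116 and gave that line's own calls and standard errors. The procedure was tested on simulated data. The simulated errors were independent, so that test cannot speak to arrays that share a culture or a batch. Named genes are the 12 largest rises and 12 largest falls among called genes, up to 5 members per list with the smallest adjusted p, and cell markers. They also include the 5 genes of each sign with the smallest adjusted p of the line difference. Placeholder symbols, such as those beginning with LOC or KIAA, were left out of the largest changes and of the line differences. JUN, ETV4, SPRED1, SPRED2, SPRY1, MSMO1, CYP51A1, SREBF1, FOS and EGR1 fall outside that rule and were named after their values were seen. The comparison and the 38 gene lists were chosen with earlier results of these data known. The number of arrays limits the precision. Alternatives were other models, filters, probe rules, the deposited values and leaving out each array.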

Additional observations from a re-analysis of the deposited data

Results flagged for a closer look

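Among the 103 genes whose values were followed through all settings, 51 had a change from early to late culture that differed between BEAS-2B and HCT116 (limma interaction, adjusted p below 0.05). Over all genes tested the share was 5.98%. The 103 include genes picked for large changes in BEAS-2B or for a small adjusted p of this same line difference. Their count is therefore no measure of how common such differences are. Values are the late minus early difference of BEAS-2B minus that of HCT116, in log2 units. In 34 genes it was lower in BEAS-2B. The lowest were ANGPTL4 at -3.78, GDF15 at -3.75, DDIT3 at -3.40, CXCL8 at -3.26, ETV5 at -2.78 and TRIB3 at -2.77. These were followed by DDIT4 at -2.69, UPP1 at -2.40, SPRY4 at -2.38, STC2 at -2.23, ID1 at -2.00 and SOX9 at -1.88. Next came IER3 at -1.72, KRT7 at -1.63, IL11 at -1.62, EDN1 at -1.52, ACTC1 at -1.35 and DUSP6 at -1.34. Values closer to 0 were those of ETV4 at -1.33, PLAUR at -1.30, LAMB3 at -1.29, SPRY2 at -1.27, CCND1 at -1.26 and NT5E at -1.26. The rest were CLDN1 at -1.14, EPHA2 at -1.01, KDM3A at -0.97, SGK1 at -0.96, PHLDA1 at -0.95 and DUSP1 at -0.89, with CCNG2 at -0.85, SNAI2 at -0.79, VWF at -0.76 and IL32 at -0.66. In 17 genes it was higher in BEAS-2B, with THBS1 at 2.71, CPA4 at 2.58, AKR1C3 at 2.43, LRRC17 at 2.22, CDC25A at 1.59 and AXIN2 at 1.57. Smaller positive values were those of HMGCS1 at 1.50, ZSCAN31 at 1.48, CEBPD at 1.48, CCN1 at 1.30, EFNA1 at 1.18 and E2F2 at 1.03. The last were DIO2 at 0.97, IGFBP5 at 0.92, TM7SF2 at 0.91, H2BC12 at 0.82 and IRF9 at 0.80. No untreated HCT116 array detected LRRC17, IGFBP5, DIO2, EDN1, ACTC1, SNAI2, VWF, IL32 or CLDN1, so the HCT116 side of those differences is near background.

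A single early array stood apart in 3 genes, its gap to the nearest other array being a share of the group's range past Dixon's critical value for 4 arrays. DDIT3 (ratio 0.8883) and EPHA2 (0.8825) were highest at 2 h, at 7.07 and 8.71, against 6.55 to 6.61 and 8.13 to 8.20 on the other early arrays. STC2 (0.8782) was lowest on the first 6 h array, at 12.01, against 12.46 to 12.52. Chance flags about 1 in 20 such groups, and 103 genes were looked at.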

How the results depend on the processing

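The number of calls depended on the model. A model with 1 coefficient per line, treatment and time shared only part of its calls with the main model. Under every alternative run, 0 genes called in both had opposite signs. The alternatives used largely the same arrays, so this count could hardly have come out otherwise and is no test of direction. Leaving out each array in turn gave 24 to 529 calls, 5 to 275 higher and 16 to 254 lower, against 534, 281 and 253 with all arrays. The lowest counts came without the 12 h or the 18 h array, and 23 and 22 of their 24 calls were among the 534. Late minus early over the 6 arrays alone gave 346 calls (177 higher), and joining 0 h with early gave 67 (27 higher, 40 lower). With 0 h joined, 12 of the 24 largest changes were still called. Lost calls were those of INSIG1, HMGCS1, TMEM187, PCMTD1, ATOSA, DIO2, SPRY4, ANGPTL4, CCND1, SLC30A1, EMP1 and ETV5. In the same model 1 of 11 ERK feedback genes was called lower. In that setting 2 of 19 cholesterol and 1 of 11 fatty acid synthesis genes were called higher. Trend and robust moderation gave 927 (490 and 437), deposited log2 values 1088 (633 and 455), deposited normalized values 1064 (559 and 505), and a stricter detection filter 924 (507 and 417). The higher share of calls was 52.6% in the main model, 40.3% with 0 h joined, and 20.83% and 33.33% without the 12 h or 18 h array. The line difference gave 878 calls, 1325 with deposited log2 values and 1331 with deposited normalized values. The causes were not tested. Of 1954 values of 103 named genes under alternatives, 1533 kept direction and call, 353 lost the call, 65 gained one and 3 uncalled genes changed sign. With 0 h joined to early, MT1E stood at 0.10 and EGR1 at -0.86, and with the mean of its probes CDC25A stood at -0.16. No paired analysis was possible because the 12 and 18 h groups hold replicate 1 alone. Probes near background have compressed differences.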
